A study of Mus musculus with 5 samples.

Results

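The basement membrane genes examined here comprise 10 genes that encode chains of the sheet of matrix under the endothelium, namely the type IV collagens Col4a1, Col4a2, Col4a3, Col4a4 and Col4a5, the multiplexin collagens Col15a1 and Col18a1, and the laminin chains Lama4, Lama5 and Lamc1. They were taken by gene name, and all 20 of their probes were read, among 56605 probes and 37074 gene names on a mouse array. Each of 5 arrays held RNA of 1 condition, so no value has a replicate of its own condition. The conditions were liver sinusoidal endothelial cells (LSECs) from mouse liver, tumor endothelial cells (TECs) from tumors of 3 hepatoma lines, which were HAK-1B and KYN-2 of human and Hepa1-6 of mouse origin, and Hepa1-6 cancer cells from culture. The labels give the C57BL/6 strain for the LSECs and for all 3 TECs, and C57L for the cancer cells. The methods name female 6-week-old C57BL/6 mice or nude mice (BALB/c nu/nu), and do not say which mice carried which tumor or how many mice gave the RNA of an array. Tumors were started in the left liver lobe from cells suspended in Matrigel, a basement membrane protein extract, and TECs were the cells that anti-mouse CD31 beads held back. The array paragraph of the methods names Huh-7 where the labels name HAK-1B. No treatment is given for any of the 5 conditions.

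Basement membranes rest on a network of type IV collagen and a network of laminin, which linker proteins tie together. Type IV collagen is a heterotrimer. Chains of Col4a1 and Col4a2 build the network found in nearly all basement membranes, whereas chains of Col4a3, Col4a4 and Col4a5 build the network known from the kidney glomerulus and the lung. A laminin is a heterotrimer of an alpha, a beta and a gamma chain. Lamc1 encodes the gamma chain of most laminins, and Lama4 and Lama5 encode the alpha chains typical of vessel walls. Col15a1 and Col18a1 encode collagens that sit at the face of the basement membrane, and the C-terminal fragment of the Col18a1 protein is endostatin, known as an inhibitor of angiogenesis. Liver sinusoids are known for lacking a continuous basement membrane, whereas capillaries of tumors commonly have one.

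The sequences below are those of 4 probes that carry the main results or lie in coding sequence, read from the scanner files with positions on mm9, and the stretches between or around the start sites of the gene pairs, read from RefSeq for GRCm38.p6. The Col15a1 probe lies at chr4:47283786-47283845 on the plus strand. Its capitals mark the glycine codons of its single open frame, 6 of 19 codons, each set apart from the next by a pair of other codons as in any collagen helix.
Col15a1 A_55_P2060386: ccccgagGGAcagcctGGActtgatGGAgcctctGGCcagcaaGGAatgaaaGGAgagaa
The Col4a3 probe spans an exon junction within chr1:82714546-82715399, plus strand, and is the probe that showed the difference between LSEC and TEC.
Col4a3 A_55_P2635625: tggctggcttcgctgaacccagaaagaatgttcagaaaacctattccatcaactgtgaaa
The Lama4 probe lies at chr10:38825794-38825853, plus strand, and stands for its gene in the comparisons.
Lama4 A_51_P212420: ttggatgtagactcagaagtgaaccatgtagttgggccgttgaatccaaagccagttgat
The Lamc1 probe spans an exon junction within chr1:155077970-155078896, minus strand, and gave a reading of this gene apart from the pair of overlapping probes nearer the gene's end.
Lamc1 A_66_P130669: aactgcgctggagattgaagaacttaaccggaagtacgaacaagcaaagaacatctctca

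The type IV collagen genes lie head to head, so that each pair reads in opposite directions from shared sequence. In RefSeq the start of Col4a2 on the plus strand (8:11312805) and that of a Col4a1 transcript on the minus strand (8:11312826) are 21 bases apart and their first exons overlap. The Col4a1 locus runs to 8:11312889, so the distance holds for that transcript. The stretch at chr8:11312797-11312834 (plus strand) holds a GC box, in capitals.
Col4a1 and Col4a2: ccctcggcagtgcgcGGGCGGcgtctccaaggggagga
The start of the Col4a3 locus (1:82586921) and that of a Col4a4 transcript (1:82586849) are 72 bases apart. The Col4a4 locus itself runs to 1:82587034, past the Col4a3 start, so the loci overlap. Between the starts of the locus and the transcript lie the 71 bases of chr1:82586850-82586920 (shown on the minus strand), with no GC box.
Col4a3 and Col4a4: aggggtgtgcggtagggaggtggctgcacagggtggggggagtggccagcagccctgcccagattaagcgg
A window of 300 bases around the start was held for 7 of the 10 genes, 8 windows in all. The GC box (GGGCGG, either strand) stood in 5 of these 8 windows and in 35.7% of 32851 windows of all genes. The CCAAT box (CCAAT, either strand) stood in 4 of the 8 and in 37.4% of all. A match describes the letters and no more.

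Signals are log2 intensities, quantile normalized over the 5 arrays, and a probe is called well above background by the flag of the scanner software. A probe without this flag is called dark. Probes well above background made up between 44.6% (cancer cells) and 57.6% (HAK-1B TEC) on 4 arrays and 78.1% on the Hepa1-6 TEC array. No spot was saturated, and spots of 1 probe repeated within an array had a median coefficient of variation between 2.66% and 2.95%, which covers the array and not the animals. The LSEC array, the 3 TEC arrays and the cancer cell array lay on 3 slides, so that slide and group cannot be told apart. All 14 pan-endothelial and all 10 LSEC markers were well above background on the LSEC array and on each TEC array, whereas 5 and 2 of them were so in the cancer cells. The labelled endothelial origin therefore had its markers on all 4 arrays, at a summed pan-endothelial signal of 742710 in LSEC and between 92249.1 and 191214 in the TECs. The summed signal of the LSEC markers was 865529 in LSEC and between 93357 and 120200 in the TECs. Of the 14 pan-endothelial markers 12, and of the 10 LSEC markers 9, were lower by ratio in all 3 TECs, where 12.8% of all genes were. In such bulk RNA fewer cells of a type and less RNA per cell cannot be told apart, and the part of these differences in the values below was not tested.

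**Figure D1:**
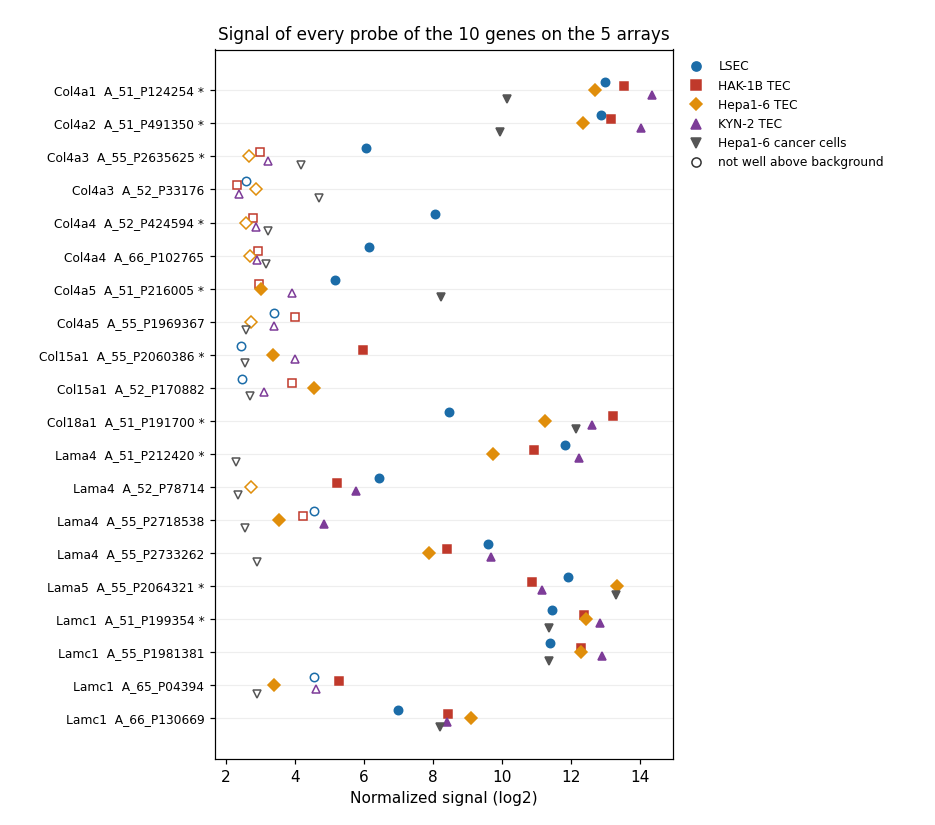
Normalized signal (log2, horizontal axis) of each of the 20 probes on the 5 arrays, 1 point per array, with open points where the probe was not well above background and an asterisk at the probe that stands for its gene. The Col4a3 and Col4a4 probes with signal were filled in LSEC only, whereas those of Col4a1, Col4a2, Col18a1 and Lama5 were filled on all 5 arrays.

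Each gene was taken at its probe with the highest mean signal over the 5 arrays. Calls followed the methods' rule of size. A higher gene needed both a ratio of 1.5 or more and a Z-score of 2 or more, and a lower gene both a ratio of 0.66 or less and a Z-score of -2 or less. The Z-score amounted to a signal higher by 11.4-fold in Hepa1-6 TEC, 7.25-fold in HAK-1B TEC and 6.79-fold in KYN-2 TEC, or lower by 9.84-fold, 6.91-fold and 6.77-fold. Col4a3 and Col4a4 passed as lower in all 3 TECs, 2 of 10 genes, where 0.728% of 26771 genes did. Calls use signals as read, dark ones included. None of the 10 passed as higher in all 3, where 0.418% of all genes did. Col15a1 and Col18a1 passed as higher in HAK-1B TEC (background of 3.11% of all genes), Col18a1 alone in KYN-2 TEC (3.64%) and none in Hepa1-6 TEC (4.54%). No gene beyond Col4a3 and Col4a4 passed as lower in any TEC, where 3.94%, 2.04% and 2.88% of all genes did in TECs of HAK-1B, Hepa1-6 and KYN-2. The LSEC array is the same in every comparison.

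By the ratio alone, Col18a1 and Lamc1 were higher in all 3 TECs, 2 of 10 where 7.95% of all genes were, and Col4a3, Col4a4 and Col4a5 were lower, 3 of 10 where 12.8% of all genes were. Tumor by tumor, the ratio put 3 genes higher and 5 lower in HAK-1B TEC, where 26.6% and 26.9% of all genes were. It put 4 higher and 4 lower in Hepa1-6 TEC (35.2% and 30.9%) and 4 higher and 4 lower in KYN-2 TEC (26% and 28.5%). The mean log2 ratio over the 3 TECs had a median of 0.098 over the 10 genes and of 0.097 over all genes, so the median of the list was that of all genes, with members on both sides of it. A limma fit of the 3 TECs against LSEC, which takes the spread of the TECs for that of the single LSEC array, passed 0 of 18 tested probes of these genes at 0.05 after Benjamini-Hochberg adjustment, as it passed 0 of 42113 probes in all (0%). Without adjustment 6 of the 18 and 8.51% of all probes were under 0.05, and the smallest adjusted p of the 18 was 0.443, for Col4a4.

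**Figure D2:**
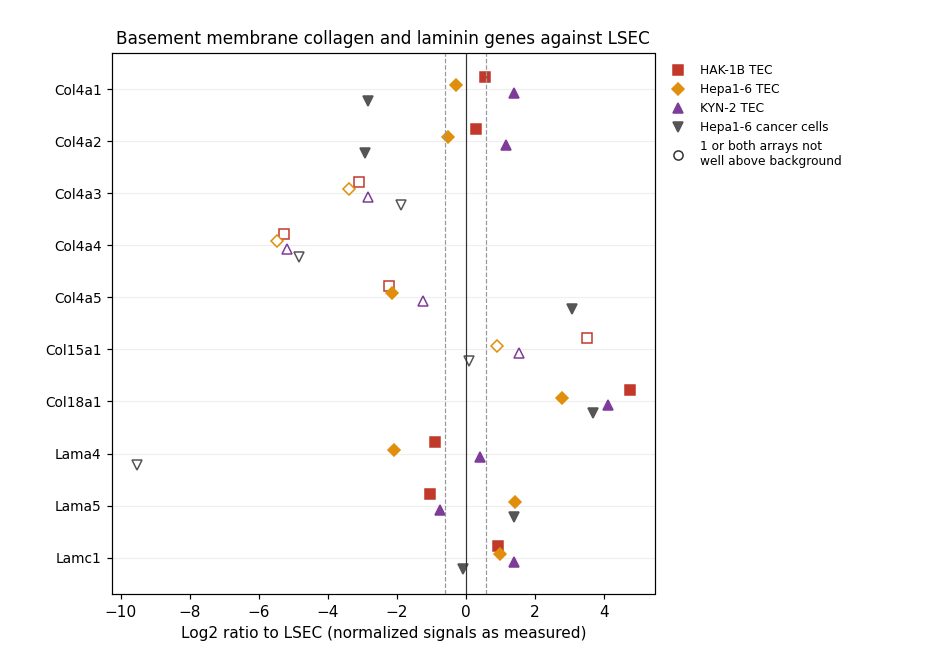
Log2 ratio of normalized signals to LSEC (horizontal axis) for the 3 TECs and the cancer cells, 1 point per array and gene, with dashed lines at ratios of 1.5 and 0.66 and open points where 1 or both arrays were not well above background. Col18a1 lay right of the line on all 4 arrays, Col4a3 and Col4a4 left of it, and Lama5 on both sides.

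Col4a1 and Col4a2, the chains of the common network, were well above background on all 5 arrays, with the arrays in the same order for both genes and LSEC among the TECs. Col4a1 read 12.98 in LSEC, 13.55 in HAK-1B TEC, 12.70 in Hepa1-6 TEC, 14.37 in KYN-2 TEC and 10.16 in the cancer cells. Col4a2 read 12.88, 13.18, 12.36, 14.04 and 9.95 on the same arrays. For both genes KYN-2 TEC was highest, the LSEC value lay within the range of the TECs, and the cancer cells lay below all 4 endothelial arrays. The mean log2 ratio to LSEC was 0.56 ± 0.84 (SD over 3 TECs) for Col4a1, with a limma adjusted p of 0.899, and 0.32 ± 0.84 for Col4a2, with a limma adjusted p of 0.929. In KYN-2 TEC alone the signals were 2.62-fold and 2.24-fold those of LSEC, past the ratio of 1.5 and short of the Z-score. Without KYN-2 TEC the mean of Col4a2 turned to -0.11 and that of Col4a1 was 0.14.

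By pattern over the 5 arrays, measured as the root mean square difference of log2 values centred on each gene's own mean, the gene most like Col4a1 among 18450 genes well above background on the 4 endothelial arrays was Col4a2, its neighbor across the shared start sequence shown above (difference 0.098). The next were Ttc12 (0.17) and Adgrv1 (0.19). The measure is a description over 5 arrays.

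Col4a3 and Col4a4, chains of the other network, were well above background on the LSEC array and on no tumor array. Col4a4 read 8.06 in LSEC and 2.78, 2.59, 2.88 and 3.24 in HAK-1B TEC, Hepa1-6 TEC, KYN-2 TEC and the cancer cells, where none was well above background. Its further probe, at chr1:82448113-82448172, read 6.15 in LSEC and 2.93, 2.72, 2.90 and 3.17. Both probes of Col4a4 thus separated LSEC from the other 4 arrays. Because a signal not well above background is only a bound, Col4a4 was at least 17.6-fold higher in LSEC than in the 3 TECs by the first probe (limma adjusted p of 0.443) and at least 4.69-fold by the further one. Singly the bound by the first probe was at least 13.7-fold over HAK-1B TEC, 37.0-fold over Hepa1-6 TEC and 10.6-fold over KYN-2 TEC. The first probe lies beyond the further one, at chr1:82445053-82445112, and begins with the 30 bases atgaagttgtgtgtatgtatgtattacgtg, printed because it gave the highest bound of the 10 genes between LSEC and the TECs.

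The Col4a3 probe across the exon junction read 6.06 in LSEC, well above background, and 2.98, 2.68, 3.22 and 4.18 in HAK-1B TEC, Hepa1-6 TEC, KYN-2 TEC and the cancer cells, where it was not. The second probe of Col4a3, at chr1:82638910-82638969, was not well above background on any array. The gene was at least 4.40-fold higher in LSEC than in the 3 TECs by the junction probe, with a limma adjusted p of 0.443. Col4a3 was near the limit of the rule of size, with Z-scores between -2.20 and -2.05. These rest on dark TEC signals, and its bounds of at least 3.44-fold over HAK-1B TEC, 9.28-fold over Hepa1-6 TEC and 2.66-fold over KYN-2 TEC fall short of the folds the Z-score needs. The bounds of Col4a4 by its first probe reach them. By its further probe those over HAK-1B TEC (3.67-fold) and KYN-2 TEC (2.84-fold) fall short, and that over Hepa1-6 TEC (9.90-fold) does not. For both genes the bound over Hepa1-6 TEC is the highest because signals were called well above background from a lower level on that array. Col4a3 no longer passed in all 3 TECs with the authors' table of normalized values, with normexp background correction or with the median over its probes. Col4a4 passed under each of these, and normexp moved its mean log2 ratio from -5.31 to -2.31. By pattern Col4a4 ranked 4013 among 37073 genes in likeness to Col4a3, dark signals included.

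Col4a5, the chain that completes the same network and is X-linked, was dim on the endothelial arrays and bright in the cancer cells. It read 5.16 in LSEC, 2.95 in HAK-1B TEC, 3.03 in Hepa1-6 TEC, 3.92 in KYN-2 TEC and 8.26 in the cancer cells, and was well above background in LSEC, Hepa1-6 TEC and the cancer cells. LSEC exceeded HAK-1B TEC at least 1.85-fold and KYN-2 TEC at least 1.43-fold. Hepa1-6 TEC was measured at 4.40-fold below LSEC. The second probe was not well above background on any array. With normexp the mean log2 ratio over the TECs moved from -1.86 to -0.46, and Col4a5 was then no longer lower by ratio in all 3.

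Col18a1, the collagen whose C-terminal fragment is endostatin, had the highest mean ratio of the 10 genes to LSEC. It read 8.48 in LSEC, 13.24 in HAK-1B TEC, 11.26 in Hepa1-6 TEC, 12.62 in KYN-2 TEC and 12.16 in the cancer cells, all well above background. The LSEC value lay below all other arrays. The ratio to LSEC was 27.1-fold in HAK-1B TEC, 17.6-fold in KYN-2 TEC and 6.88-fold in Hepa1-6 TEC, with a mean log2 ratio of 3.89 ± 1.01 (SD over 3 TECs) and a limma adjusted p of 0.477. HAK-1B and KYN-2 TEC passed the rule of size, and Hepa1-6 TEC passed the ratio alone, whereas with normexp all 3 passed. The mean stayed between 3.46 and 4.45 over all alternatives run. The gene has 1 probe, at chr10:76515820-76515879 on the minus strand, which begins with agcattcagtcagcacccagggctctggct, and the value of the cancer cells lay within the range of the TECs.

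Col15a1, the other multiplexin, was dark in LSEC and in the cancer cells on both of its probes. The probe in the collagen helix read 2.45 in LSEC, 5.97 in HAK-1B TEC, 3.37 in Hepa1-6 TEC, 4.0 in KYN-2 TEC and 2.55 in the cancer cells, and it was well above background in HAK-1B TEC and Hepa1-6 TEC. The second probe, at chr4:47325273-47325332, read 2.48, 3.92, 4.56, 3.10 and 2.71 and was well above background in Hepa1-6 TEC alone. The probes agreed on Hepa1-6 TEC and not on HAK-1B TEC. The signal of HAK-1B TEC was at least 2.45-fold that of LSEC, short of the 7.25-fold that the Z-score needs, so its call as higher rests on the dark LSEC signal. The call was lost with normexp, which took the log2 ratio from 3.52 to 0.79, and with the median over probes, where the Z-score was 1.73. In contrast Hepa1-6 TEC lay under the lowest signal called well above background in LSEC and gives no fold. KYN-2 TEC and LSEC were both dark, so this pair was not compared.

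Lamc1, the gamma chain shared by most laminins, was higher in each TEC by a similar amount. It read 11.45 in LSEC, 12.40 in HAK-1B TEC, 12.43 in Hepa1-6 TEC, 12.85 in KYN-2 TEC and 11.36 in the cancer cells. LSEC and the cancer cells lay close together and below the TECs. The ratio to LSEC was 1.93-fold, 1.98-fold and 2.63-fold in TECs of HAK-1B, Hepa1-6 and KYN-2, with a mean log2 ratio of 1.11 ± 0.25 (SD over 3 TECs) and a limma adjusted p of 0.663. The overlapping second probe gave 1.11 ± 0.34. The probe across the exon junction gave 1.65 ± 0.39 and read the cancer cells above LSEC by 1.19, where the first probe gave -0.09. The last probe, named by an Ensembl transcript, was well above background in HAK-1B TEC and Hepa1-6 TEC only. The mean log2 ratio of Lamc1 stayed between 0.97 and 1.19 over all alternatives run.

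Lama4, the alpha chain made by endothelium, was bright on all endothelial arrays and dark in the cancer cells. It read 11.82 in LSEC, 10.94 in HAK-1B TEC, 9.74 in Hepa1-6 TEC, 12.25 in KYN-2 TEC and 2.29 in the cancer cells. KYN-2 TEC lay above LSEC, and HAK-1B and Hepa1-6 TEC lay below it. The log2 ratio to LSEC was 0.42 in KYN-2 TEC, -0.89 in HAK-1B TEC and -2.08 in Hepa1-6 TEC, a mean of -0.85 ± 1.25 (SD over 3 TECs) with a limma adjusted p of 0.897. A second probe, at chr10:38773604-38773663, gave 0.07, -1.20 and -1.72 and kept the order of the arrays. Hepa1-6 TEC had the lowest Lama4 signal of the 4 endothelial arrays on the 3 probes of the gene that were well above background in LSEC. Without Hepa1-6 TEC the mean was -0.23, and with normexp Hepa1-6 TEC passed the rule of size as lower.

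The genes most like Lama4 by pattern over the 5 arrays were Vwf (difference 0.27), which encodes von Willebrand factor of endothelial cells, Emcn (0.30), which encodes the endothelial sialomucin endomucin, and Bcl6b (0.46), a transcriptional repressor. These differences include the cancer cell array, where Lama4 and Emcn were dark. The genes most like Lamc1 were a long non-coding RNA locus of chromosome 11, Cd9 (0.093), which encodes a tetraspanin, and Chadl (0.11).

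Lama5, the other vessel alpha chain, moved in opposite directions in the tumors. It read 11.92 in LSEC, 10.88 in HAK-1B TEC, 13.35 in Hepa1-6 TEC, 11.17 in KYN-2 TEC and 13.31 in the cancer cells. Hepa1-6 TEC and the cancer cells of the same line lay above LSEC, and the TECs of both human lines lay below it. The log2 ratio to LSEC was 1.43 in Hepa1-6 TEC, -0.75 in KYN-2 TEC and -1.04 in HAK-1B TEC, with a mean of -0.12 ± 1.35 (SD over 3 TECs) and a limma adjusted p of 0.982. Hepa1-6 TEC and the cancer cells differed by 0.03. Without Hepa1-6 TEC the mean was -0.89 and without HAK-1B TEC it was 0.34. The sign in each TEC was kept under every normalization tried. The gene has 1 probe, so no further probe checks these directions.

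Hepatocyte markers differed between the arrays in both directions. By ratio to LSEC, 7 of the 12 were higher and 3 lower in Hepa1-6 TEC, where 35.2% and 30.9% of all genes were. The counts were 2 and 9 for HAK-1B TEC (26.6% and 26.9%) and 2 and 8 for KYN-2 TEC (26% and 28.5%). In the cancer cells 4 were higher and 7 lower (36.2% and 37.7%). In all 3 TECs Serpina1a, a protease inhibitor of plasma, and Cyp2e1, a cytochrome P450, were lower at mean log2 ratios of -3.96 and -3.70, and Ass1, an enzyme of the urea cycle, was higher at 1.87. Hnf4a, a transcription factor of hepatocytes, read 8.46 in LSEC, 3.94 in HAK-1B TEC, 10.13 in Hepa1-6 TEC, 5.45 in KYN-2 TEC and 13.52 in the cancer cells. Of the 12 markers, 12 were well above background in LSEC, 8 in HAK-1B TEC, 11 in Hepa1-6 TEC, 12 in KYN-2 TEC and 7 in the cancer cells. Their summed signal was 115392, 112557, 224599, 85748.1 and 71966.1 on these arrays, highest in Hepa1-6 TEC and lowest in the cancer cells. Their median log2 signal was 9.70, 6.21, 9.81, 6.99 and 10.35, highest in the cancer cells. The sum and the median thus ranked the arrays differently. Lamb3, the beta chain of epithelial laminin, read 8.56 in Hepa1-6 TEC and 11.25 in the cancer cells and was not well above background on the other 3 arrays by its brightest probe. A dimmer probe of Lamb3 was well above background in HAK-1B TEC and Hepa1-6 TEC alone, at 4.93 and 3.41. The part of cancer cell or hepatocyte RNA in the Hepa1-6 TEC values was not tested.

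Of the common beta chains, Lamb1 was higher in all 3 TECs and Lamb2 in none. Lamb1, the beta chain most often joined with Lamc1, read 6.82 in LSEC, 11.76 in HAK-1B TEC, 9.97 in Hepa1-6 TEC, 11.99 in KYN-2 TEC and 12.11 in the cancer cells, all well above background. LSEC lay below all other arrays, as it did for Col18a1, and the ratios were 30.7-fold, 8.89-fold and 35.9-fold in TECs of HAK-1B, Hepa1-6 and KYN-2 (limma adjusted p of 0.45). A second probe gave 17.3-fold, 4.38-fold and 18.6-fold. Lamb2, the beta chain of mature vessels, read 11.58, 9.62, 11.25, 10.95 and 11.25 and was not higher in any TEC.

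Of 8 other chains, 2 were higher by ratio in all 3 TECs and none was lower, where 7.95% and 12.8% of all genes were. Besides Lamb1 this was Lama1, an embryonic alpha chain, which was not well above background in LSEC. Lama1 read 4.35 in LSEC and 5.28, 5.41 and 5.28 in TECs of HAK-1B, Hepa1-6 and KYN-2. It was also dark in the cancer cells. With normexp or with the median over probes Lamb1 alone of these passed the ratio in all 3 TECs. Col4a6, the remaining type IV chain, was dark on all 5 arrays.

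Of 12 linkers and other basement membrane proteins, 4 were lower by ratio in all 3 TECs and 1 was higher, where 12.8% and 7.95% of all genes were. Hspg2, the proteoglycan perlecan, read 14.62 in LSEC and 12.87, 13.37 and 13.56 in TECs of HAK-1B, Hepa1-6 and KYN-2, with log2 ratios between -1.75 and -1.05. Nid1, the linker nidogen that binds Lamc1 and type IV collagen, read 13.63, 11.45, 12.01 and 12.77, with log2 ratios between -2.18 and -0.86. Tinagl1, a matricellular protein, and Ntn4, a laminin-related netrin, had mean log2 ratios of -2.83 and -2.73. The LSEC value of all 4 genes lay above every TEC. Scaling to the 75th percentile took Nid1 from the 4, and the median over probes left Tinagl1 and Ntn4.

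The gene that was higher was Vwa1, a matrix protein of basement membranes, at 4.53 in LSEC and 9.47, 8.25 and 11.13 in TECs of HAK-1B, Hepa1-6 and KYN-2, at least 30.6-fold in the mean (limma adjusted p of 0.48). It was the only linker past the rule of size in all 3 TECs. A second Vwa1 probe, well above background on all 5 arrays, gave log2 ratios of -1.16, -1.50 and 0.04, so the probes disagreed and the rise was not seen with the median over probes.

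**Figure D3:**
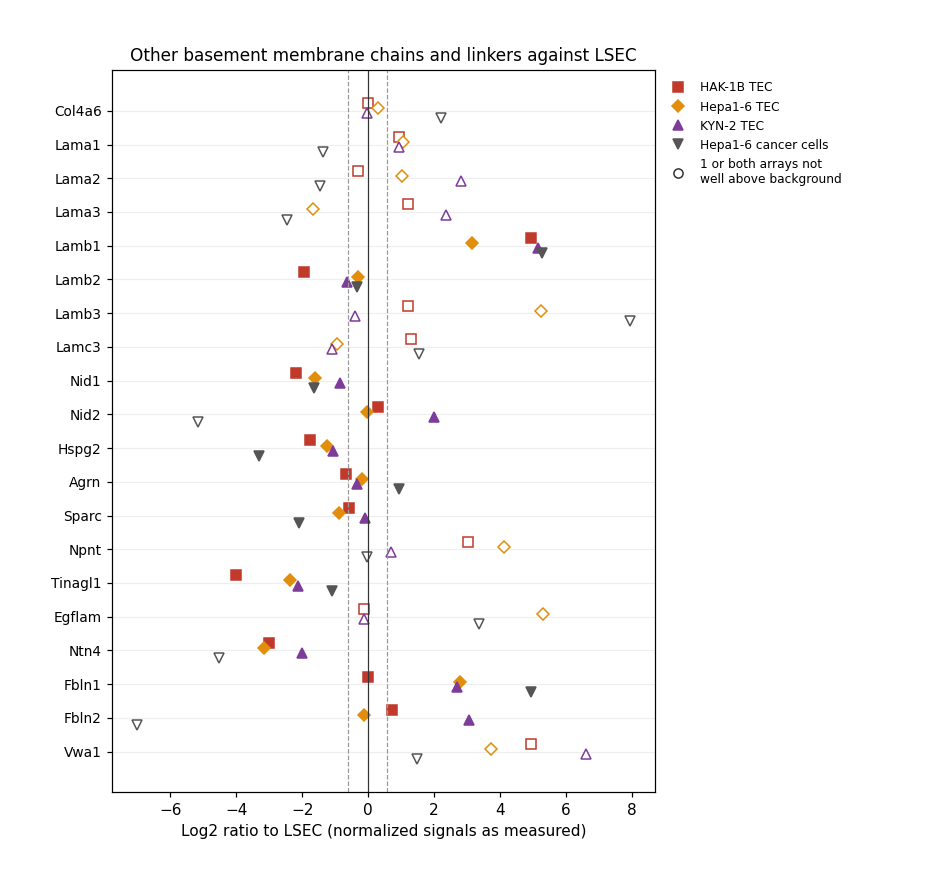
Log2 ratio of normalized signals to LSEC (horizontal axis) for 8 other chains and 12 linkers in the 3 TECs and the cancer cells, 1 point per array and gene, drawn as in the plot of the 10 genes. Lamb1 and Vwa1 lay far to the right in all 3 TECs, whereas Nid1, Hspg2, Tinagl1 and Ntn4 lay left of the line at 0.66.

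Among 17 genes for collagen folding, modification and crosslinking, 3 were higher and 1 was lower by ratio in all 3 TECs, where 7.95% and 12.8% of all genes were. Fkbp10, a collagen chaperone of the endoplasmic reticulum, read 7.60 in LSEC and 11.78, 10.61 and 12.24 in TECs of HAK-1B, Hepa1-6 and KYN-2. P4hb, the beta subunit of prolyl hydroxylase, and Ppib, a prolyl isomerase, had mean log2 ratios of 1.82 and 0.92, and with the median over its probes P4hb was below LSEC, at log2 ratios of -0.59, -1.03 and -0.78, of which the first missed the ratio of 0.66. Pxdn, the peroxidasin that makes the sulfilimine bond of type IV collagen, read 14.91 in LSEC and 12.32, 12.28 and 13.42 in the TECs. Serpinh1, the chaperone of collagen helices, read 12.04 in LSEC and 11.25, 12.03 and 12.07, and was dark in the cancer cells at 2.87.

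Of 12 receptors, 2 were higher and 1 was lower by ratio in all 3 TECs, where 7.95% and 12.8% of all genes were. Itga3 and Itga7, integrin alpha subunits that bind laminin, were higher at mean log2 ratios of 3.38 and 3.09. Itga1, which binds collagen, was lower at -2.31. Itga3 read 6.51 in LSEC, 8.23, 11.58 and 9.88 in TECs of HAK-1B, Hepa1-6 and KYN-2 and 12.93 in the cancer cells. Itga7 was not well above background in LSEC, at 4.78.

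Markers of matrix-making cells differed from LSEC in both directions. Of 13 stellate cell and fibroblast markers, 5 were higher by ratio in all 3 TECs and none was lower, where 7.95% and 12.8% of all genes were. Singly, 6 were higher and 3 lower in HAK-1B TEC (26.6% and 26.9% of all genes). In Hepa1-6 TEC 8 were higher and 2 lower (35.2% and 30.9%), and in KYN-2 TEC 8 and 1 (26% and 28.5%). Of the 13, 10 were well above background in LSEC, 12 in HAK-1B TEC, 13 in Hepa1-6 TEC, 12 in KYN-2 TEC and 3 in the cancer cells. Their summed signal was 13314.6 in LSEC, 24544.2 in HAK-1B TEC, 48153.3 in Hepa1-6 TEC, 36751.8 in KYN-2 TEC and 125751 in the cancer cells, where Dcn alone read 16.74. Col1a1, the main fibrillar collagen chain, read 4.72 in LSEC (not well above background), 9.46, 10.87 and 11.53 in TECs of HAK-1B, Hepa1-6 and KYN-2 and 4.70 in the cancer cells. Pdgfrb, a receptor of pericytes and stellate cells, read 5.12, 6.54, 7.59, 7.87 and 3.57. Of 8 mural cell markers 3 were higher by ratio in all 3 TECs and none was lower, beside the same shares of all genes. Singly, 4, 3 and 5 were higher and 2, 3 and 0 lower in TECs of HAK-1B, Hepa1-6 and KYN-2. Their summed signal was 3049.84 in LSEC and between 6357.84 and 12684.7 in the TECs. The part of these cells in the Col18a1, Lamc1 and Lamb1 values was not tested.

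Macrophage markers were bright on all 4 endothelial arrays. All 10 were well above background there and 4 were so in the cancer cells, and their summed signal was 854728 in LSEC and between 458536 and 841094 in the TECs. By ratio 4 were lower in all 3 TECs and none was higher, where 12.8% and 7.95% of all genes were. The 4 lower ones were Cd5l, Vsig4, Clec4f and Marco, with mean log2 ratios between -3.40 and -2.79. Singly the list went in both directions, with 4 higher and 4 lower in HAK-1B TEC (26.6% and 26.9% of all genes). The counts were 0 and 7 in Hepa1-6 TEC (35.2% and 30.9%) and 2 and 6 in KYN-2 TEC (26% and 28.5%). The part of macrophage RNA in the basement membrane values was not tested.

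Hepa1-6 cancer cells were set against LSEC to see which chains the cancer cells of the line make. Lama4 was called lower by the rule of size, 1 of 10 genes where 4.81% of all genes were, and was at least 58.2-fold higher in LSEC. None was called higher (2.59% of all genes). By ratio alone 3 genes were higher and 5 lower in the cancer cells, where 36.2% and 37.7% of all genes were. By measured signal Col18a1 was 12.8-fold and Lama5 2.63-fold higher in the cancer cells, and Col4a5 8.53-fold. Col4a1 was 7.07-fold and Col4a2 7.60-fold higher in LSEC. Col4a4 was at least 4.27-fold and Col4a3 at least 1.07-fold higher in LSEC.

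Hepa1-6 TEC was then set against the cancer cells of the same line. Lama4 was called higher in the TECs, 1 of 10 where 4.97% of all genes were, at least 13.8-fold. That bound falls short of the 21.1-fold the Z-score needs, and the call rests on the dark signal of the cancer cells. Col4a5 was called lower, 1 of 10 where 1.57% of all genes were, with a 37.5-fold higher signal in the cancer cells. With normexp Col4a5 was not called and Col4a1 was called higher in its place. By ratio alone 5 genes were higher and 2 lower in the TECs, where 34.1% and 32.6% of all genes were. Col4a1 and Col4a2 were 5.80-fold and 5.31-fold higher in the TECs, Lamc1 was 2.10-fold higher, and Col18a1 was 1.86-fold higher in the cancer cells. In the TECs of this line Col4a1, Col4a2 and Lama4 thus lay above the cancer cells, and Lama5 lay 0.03 from them on the log2 scale. Which cells these signals came from was not tested.

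Among the TECs, KYN-2 was higher than HAK-1B for Lama4 by 1.31, Col4a2 by 0.86 and Col4a1 by 0.83 on the log2 scale, and lower for Col18a1 by a log2 difference of -0.62. Hepa1-6 TEC stood below the mean of the TECs of the human lines for Lama4 (-1.85), Col18a1 (-1.66), Col4a1 (-1.26) and Col4a2 (-1.25) and above it for Lama5 (2.32). Lamc1 differed by -0.19. With 1 array each these differences have no replicate check.

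**Figure D4:**
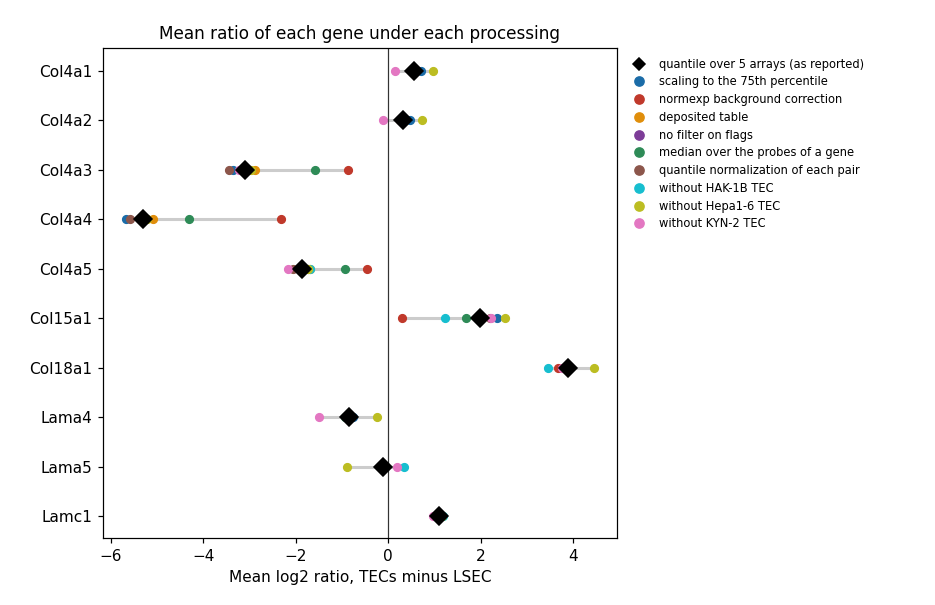
Mean log2 ratio of the TECs to LSEC (horizontal axis) for each of the 10 genes, with a black diamond for the value reported and a point for each other normalization, filter, probe summary or left-out TEC. Col18a1 and Lamc1 stayed to the right of 0, and Col4a3, Col4a4 and Col4a5 to the left, with normexp nearest to 0 for these 3, whereas Col4a2 and Lama5 had points on both sides.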

How the data were processed

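RNA of 5 conditions was amplified, labelled with Cy3 and hybridized to a 60-mer Agilent mouse array, 1 array each. The authors deposited spot intensity on a linear scale with the background subtracted, read with Agilent Feature Extraction (version 9.5.1.1 in the submitters' processing notes and the methods, 10.7.1.1 in the file header). They also deposited a table of quantile-normalized intensity values, used as an alternative. Its columns share a median of 42.96. The methods describe normalization of 2 samples at a time, which would not in general give all 5 columns the same median. How this table was made is not stated in the sources used here.

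Control spots were left out, spots of a probe averaged, and log2 values of the 5 arrays quantile normalized together (by pair in the methods). A probe entered a pair where either array flagged it present, lincRNA probes excepted. The Z-score centres and scales the log2 ratios of those probes. A bound sets the bright signal against the higher of the dim probe's own signal and the lowest signal among probes well above background on the dim array. limma 3.58.1 in R 4.3.3 compared the 3 TECs with LSEC, with 2 residual degrees of freedom and Benjamini-Hochberg adjustment. Python 3.11.15, numpy 2.4.6 and pandas 2.3.3 did the rest. The rule of size and limma were tested on simulated data.

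The members and gene lists were chosen with earlier results of these data known. All members are named, and of each other list at most 4 genes past the ratio in all 3 TECs with the largest smallest change. A further chain is not reported here. Nid1, Lamb2, Lamb3, Col4a6, Serpinh1, Dcn, Pdgfrb and Hnf4a were named after their values were seen. Alternatives were scaling to the 75th percentile, normexp with an offset of 50, the deposited table, no filter, the median over probes, normalization by pair and each TEC left out in turn. Precision is limited by the number of arrays.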

Additional observations from a re-analysis of the deposited data

Results flagged for a closer look

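Lama5 moved in opposite directions against LSEC in TECs of different tumors. The log2 ratio of HAK-1B TEC minus that of Hepa1-6 TEC was -2.465, and that of Hepa1-6 TEC minus that of KYN-2 TEC was 2.171. Each condition had 1 array and the gene 1 probe, and the difference was not tested.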

How the results depend on the processing

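With 1 array per condition no value has a replicate check, a signal not well above background gives only a bound, and the Hepa1-6 TEC array had more probes above background than the others. The count of genes past the rule of size in all 3 TECs, 2 as reported, was 1 with the deposited table and 1 with the median over probes, Col4a4 in both. In the cancer cells against LSEC it was 2 without the filter (Col4a4 added) and 0 with the median over probes, where Hepa1-6 TEC against the cancer cells also gave 0. The cause was not tested, and no share of all genes stands beside the counts of this paragraph. With normexp the 2 genes past the rule in all 3 TECs were Col4a4 and Col18a1. Leaving out a TEC gave between 2 and 3 genes past the rule, the third being Col18a1 without Hepa1-6 TEC, between 2 and 3 higher and between 3 and 4 lower by ratio, a median log2 ratio between 0.016 and 0.33, and 0 probes past limma. limma also passed 0 probes of these genes with scaling to the 75th percentile, normexp, the deposited table and no filter, and was not run with the median over probes or normalization by pair. Of the mean log2 ratios of single genes, 79 of the values under alternatives stayed within the SD over the TECs and 11 did not. All but 1 of the 11 were in Col4a3, Col4a4 and Col4a5, and the other was Col15a1 with normexp, at 0.30. None of them had a reversed sign among genes called by ratio. Leaving out 1 of 3 TECs cannot move a mean past this SD, and the means without the filter equal those reported. Genes with 1 probe cannot move with the median over probes. The 79 therefore include values that could not have left the SD. For Col4a3 and Col4a4 the SD is that of dark TEC signals. Scaling to the 75th percentile set the median ratio of all probes in Hepa1-6 TEC at 0.43 in place of 0.05 on the log2 scale. No paired analysis was possible because there was 1 array for each condition, and a block for slide could not be fitted.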
